A study of Mus musculus with 11 samples.

Results

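A set of 9 genes of red blood cells was followed across RNA-seq libraries made at E10.5 from mouse facial tissue. They are the alpha-like globins *Hba-x*, *Hba-a1* and *Hba-a2*, the beta-like globins *Hbb-y* and *Hbb-bh1*, and *Alas2*, *Slc4a1*, *Klf1* and *Gata1*. These 9 genes, out of 38561 in the count tables, were chosen by name from earlier results of these same libraries. Their levels and differences are therefore given as a description. Where calls of members by a test over all genes are counted, nothing is read from them. All 9 symbols matched 1 Ensembl identifier each, and all 9 passed the low-count filter, as did 17317 genes in total.

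The 11 libraries came from 2 wild type (wt) samples, 3 samples homozygous for a mutation of *Rspo2* (*Rspo2*KO), 3 homozygous for a mutation of *Wnt9b* (*Wnt9b*KO) and 3 homozygous for both (DKO). *Rspo2* encodes R-spondin 2, a secreted protein that potentiates WNT signaling, and *Wnt9b* encodes a WNT ligand of the facial ectoderm. All embryos were of mixed strain and E10.5, and the mandibular and maxillary arch and the nasal processes were pooled, with the blood that the tissue held. The labels number the samples but do not say whether each came from 1 embryo, so the spread between samples may be technical in part. Total counts ranged from 11136166 to 18017344 per library, and levels are given as CPM (counts scaled to a common library total) after TMM scaling, an edgeR factor that corrects library totals for composition.

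Some features of these libraries bear on every value below. *Rspo2* stood at 2.86 CPM in the library labelled *Wnt9b*KO 2 and at 15.5 CPM in the library labelled DKO 3, both against their labels, and wt stood at 14.8 and 16.0 CPM. *Wnt9b* was at 16.2 to 23.3 CPM in *Wnt9b*KO and DKO and at 10.8 and 13.4 CPM in wt, so gene counts do not check that mutation. *Xist*, the RNA of the inactive X chromosome, was at 679 to 1468 CPM in wt and DKO and at 0.82 to 1.94 CPM in both single mutants. Sex therefore cannot be told apart from genotype in either single mutant against wt, or in DKO against either single mutant. *Ddx3y*, also used to check sex, was at 57.5 to 75.7 CPM in the single mutants and at 1.07 and 0.121 CPM in wt. In DKO it was at 0.0587, 0.124 and 4.43 CPM, the last in the library labelled DKO 3. The summed level of small nuclear RNA genes was 352 to 419 CPM in wt and *Rspo2*KO and 70.1 to 82.6 CPM in *Wnt9b*KO and DKO. This difference in library content follows the *Wnt9b* genotype in the same way as the globins do, and its part in the results was not tested.

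Hemoglobin is built from alpha-like and beta-like globin chains, each carrying a heme group. At this stage most blood cells are primitive erythroid cells that arose in the yolk sac, and they circulate through the face while they mature. These cells make the embryonic chains encoded by *Hba-x* (zeta globin), *Hbb-y* (epsilon-y globin) and *Hbb-bh1* (beta-h1 globin) beside the alpha globin of *Hba-a1* and *Hba-a2*, which later red cells keep. ALAS2 starts heme synthesis in red cells, SLC4A1 (band 3) is the anion exchanger of the red cell membrane, and KLF1 and GATA1 are transcription factors that switch on globin and other erythroid genes. In tissue RNA, fewer red cells and less RNA per red cell cannot be told apart.

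The globin genes lie in 2 clusters (GRCm38). *Hba-x* (ENSMUSG00000055609, chr11:32276400-32278116), *Hba-a1* (ENSMUSG00000069919, chr11:32283511-32284465) and *Hba-a2* (ENSMUSG00000069917, chr11:32296489-32297298) follow each other on the plus strand. *Hbb-bh1* (ENSMUSG00000052217, chr7:103841637-103843164) and *Hbb-y* (ENSMUSG00000052187, chr7:103851749-103853216) lie on the minus strand. *Slc4a1* (ENSMUSG00000006574, chr11:102348824-102366203) shares its chromosome with *Wnt9b*, 1.361 Mb away. *Klf1* (ENSMUSG00000054191) lies at chr8:84901928-84905291. *Alas2* (ENSMUSG00000025270, chrX:150547375-150570638) and *Gata1* (ENSMUSG00000031162, chrX:7959260-7978071) are X-linked. *Alas2* lies within the antisense gene *Apex2*, and 311 of its 2403 exon bases are also exon bases of *Apex2*. Strand use in the counting is not given in the sources used here, so reads on those bases cannot be assigned with certainty.

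The alpha globin genes *Hba-a1* and *Hba-a2* are near-identical copies, and their sequences are shown because the split of reads between them rests on very few bases. Their coding sequences of 429 bases differ at 1 position, C381T, counted from the first base of the start codon with the *Hba-a1* base first, and the encoded protein is the same. The stretches below are coding bases 357 to 405 in exon 3 of each gene, read from the GENCODE transcripts, with the differing base in capitals. They lie at chr11:32284319-32284367 and chr11:32297136-32297184 on the plus strand.
Hba-a1: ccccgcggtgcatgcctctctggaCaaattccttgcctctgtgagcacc
Hba-a2: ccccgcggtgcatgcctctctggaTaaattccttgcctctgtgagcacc

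Of the 616 different windows of 50 bases (the read length) in *Hba-a2* transcripts, 66 (10.7%) occur in no other gene. In *Hba-a1* transcripts 211 of 761 (27.7%) do so, and the remainder match *Hba-a2*. All windows of *Hba-x* (887), *Hbb-y* (584) and *Hbb-bh1* (564) are unique to their gene. Counts of *Hba-a1* and *Hba-a2* taken singly are therefore uncertain, and their sum is given beside them. How reads that match both genes were counted is not known. If they were left out, the sum is too low as well, and levels per kb and ratios that use these genes are shifted with it.

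Upstream sequence is shown for *Hbb-y* and *Hba-a2*, which were both lower in *Wnt9b*KO and DKO. RefSeq promoters (GRCm38.p6) were found for 7 of the 9 genes, with no entry used for *Hbb-bh1* and *Slc4a1*. The stretches below cover bases 190 to 11 before the annotated start of *Hbb-y* (chr7:103853218-103853397, minus strand) and of *Hba-a2* (chr11:32296302-32296481, plus strand). Capitals mark matches on either strand to a GATA word, which was spelled AGATAA or, as the other allowed form, TGATAA. They also mark the CACCC-type word CCACCC and the word CCAAT.
Hbb-y: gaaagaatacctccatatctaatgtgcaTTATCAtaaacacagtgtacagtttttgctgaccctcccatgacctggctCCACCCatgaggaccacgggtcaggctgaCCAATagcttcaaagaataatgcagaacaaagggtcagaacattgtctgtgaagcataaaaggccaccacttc
Hba-a2: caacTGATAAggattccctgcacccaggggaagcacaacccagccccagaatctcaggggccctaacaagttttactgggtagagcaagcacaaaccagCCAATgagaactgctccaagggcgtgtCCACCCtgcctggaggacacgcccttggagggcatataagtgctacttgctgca

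*Hbb-y* held a GATA word 162 bases, a CACCC-type word 112 bases and a CCAAT word 83 bases before the start. *Hba-a2* held the same 3 kinds at 186, 64 and 91 bases. The aligned 247 upstream bases of *Hba-a1* and *Hba-a2* had 0 differences, so the upstream matches do not separate those genes. Over the 250 upstream bases, 6 of 7 genes held a GATA word (all but *Gata1*), against 16.6% of 32851 mouse promoters. A CACCC-type word was held by 6 of 7 (all but *Klf1*) against 28.1% of promoters, CCAAT by 4 of 7 against 33.8%, and the TATA word TATAAA by 2 of 7 (*Hba-x* and *Alas2*) against 12.4%. The sequence that *Hba-a1* and *Hba-a2* share was counted for both genes in the GATA, CACCC-type and CCAAT counts. Such matches describe letters only.

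In each of the 11 libraries the members kept nearly the same order when levels were set per length. *Hbb-y* was highest (1222 to 5095 CPM per kb of exon), *Hbb-bh1* was next (615 to 2039) and *Hba-x* followed (417 to 1195). *Hba-a1* came after these in every library, at 79.0 to 172 CPM per kb. *Hba-a2*, *Slc4a1* and *Alas2* exchanged places between the fifth and seventh rank, at 2.50 to 64.1, 9.01 to 15.6 and 8.01 to 17.5 CPM per kb. *Klf1* (1.38 to 4.29) and *Gata1* (0.612 to 1.81) were lowest, and *Gata1* rested on 24 to 70 counts per library. All 9 genes, the erythroid markers themselves, were detected in every library. *Alb* and *Afp*, the defining liver and yolk sac markers, were at 0 to 0.0893 and 0 to 3.22 CPM. The whole list of 7 liver and yolk sac endoderm markers summed to 9.35 and 17.5 CPM in wt, 15.7 to 23.3 CPM in *Rspo2*KO, 3.94 to 13.0 CPM in *Wnt9b*KO and 3.73 to 19.2 CPM in DKO, of which *Ttr* made up to 17.6 CPM.

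The 5 globins together were about as high in *Rspo2*KO as in wt, and lower in both genotypes with the *Wnt9b* mutation. Their summed level was 3919 and 4876 CPM in wt, and *Rspo2*KO libraries ranged from 4436 to 5737 CPM. It was 1755 to 2336 CPM in *Wnt9b*KO and 1715 to 2811 CPM in DKO, and no library of these genotypes reached the lowest wt or *Rspo2*KO library. The means of log2 summed level differed from wt by 0.18 in *Rspo2*KO, -1.05 in *Wnt9b*KO and -1.04 in DKO, where the pooled SD between replicates was 0.26. DKO and *Wnt9b*KO differed by 0.01. The comparisons with wt share the same 2 control libraries.

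**Figure D1:**
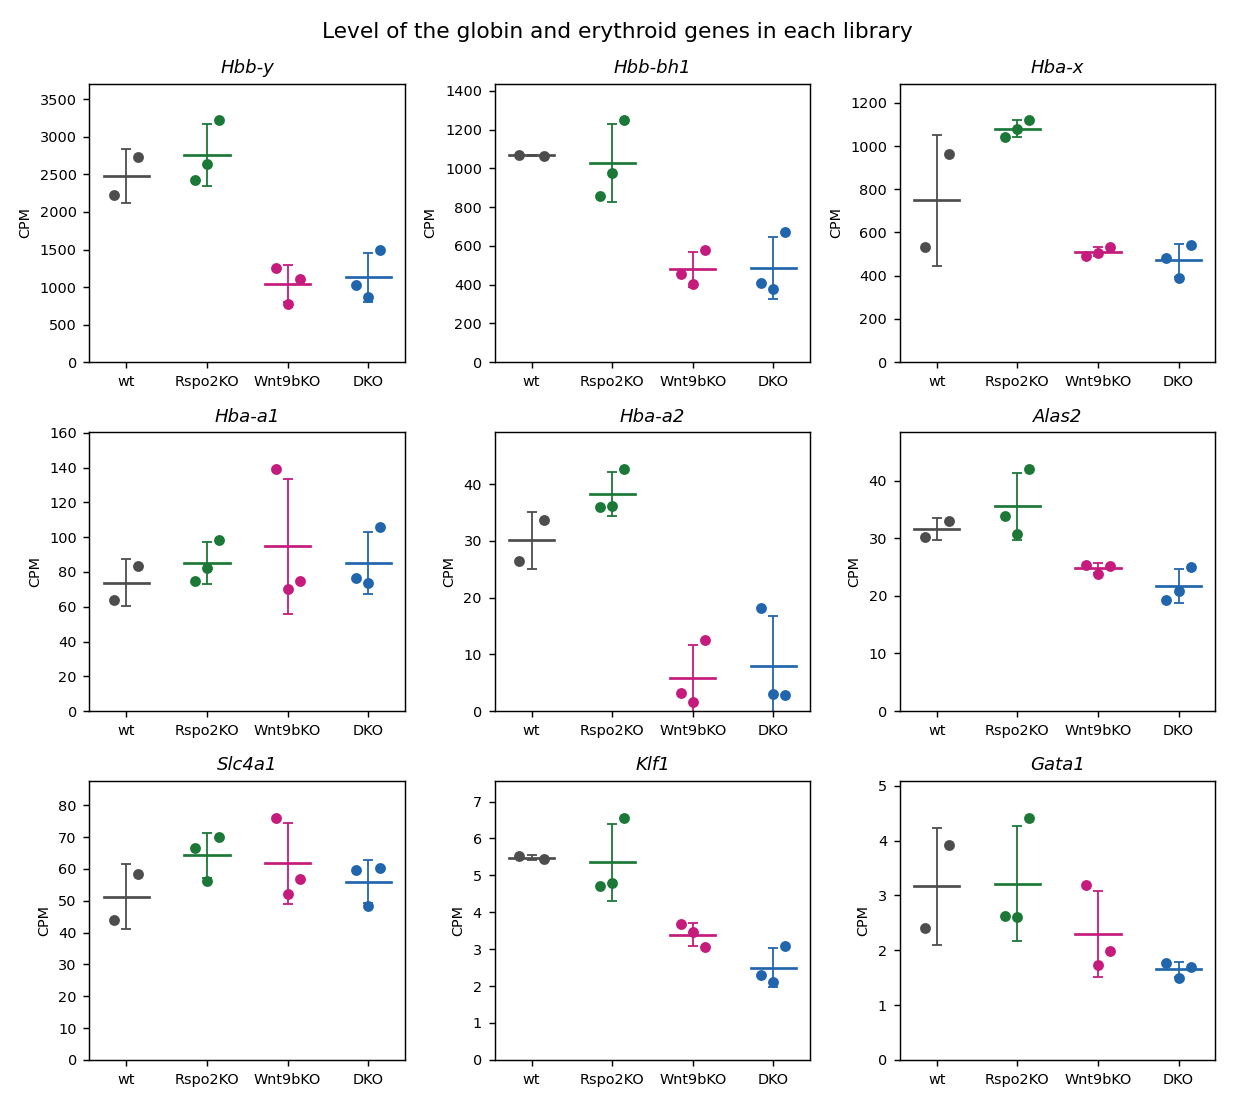
Levels of the 9 genes in CPM (vertical axes, linear, from 0) in the 11 libraries by genotype (horizontal axes), with points for libraries, lines for means and bars for SD, cut at 0 where they would pass below it. *Hbb-y* and *Hbb-bh1* separate wt and *Rspo2*KO from *Wnt9b*KO and DKO, while *Hba-a1* and *Slc4a1* overlap across genotypes.

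*Hbb-y*, the most abundant member, stood at 2228 and 2730 CPM in wt and at 2427, 2640 and 3225 CPM in *Rspo2*KO. It stood at 1248, 774 and 1114 CPM in *Wnt9b*KO and at 1029, 870 and 1490 CPM in DKO. The highest library with the *Wnt9b* mutation was thus below the lowest without it. The log2 fold change from edgeR, with its SE, was -1.25 ± 0.22 in *Wnt9b*KO, -1.13 ± 0.22 in DKO and 0.16 ± 0.23 in *Rspo2*KO.

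*Hbb-bh1*, the other embryonic beta-like gene, was at 1067 and 1066 CPM in wt and at 856, 977 and 1250 CPM in *Rspo2*KO. In *Wnt9b*KO it was at 453, 405 and 578 CPM, and in DKO at 408, 377 and 670 CPM. Here too the genotypes with and without the *Wnt9b* mutation did not overlap, and the highest of the 6 mutant libraries was the library labelled DKO 3. Log2 fold changes were -1.16 ± 0.22 in *Wnt9b*KO and -1.14 ± 0.22 in DKO.

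*Hba-x*, the embryonic alpha-like gene, was at 534 and 963 CPM in wt, a wide gap for 2 samples of a group. It was at 1042, 1078 and 1121 CPM in *Rspo2*KO, at 493, 504 and 534 CPM in *Wnt9b*KO and at 480, 391 and 543 CPM in DKO. All *Rspo2*KO libraries were above both wt libraries, while the DKO range reached past the lower wt library. Log2 fold changes were 0.53 ± 0.20 in *Rspo2*KO, -0.55 ± 0.19 in *Wnt9b*KO and -0.67 ± 0.19 in DKO. These values rest on the wt libraries: without wt 2 they were 1.01, -0.07 and -0.18, and without wt 1 they were 0.17, -0.92 and -1.04. DKO and *Rspo2*KO, which use no wt library, differed by -1.20 ± 0.17.

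*Hba-a1* showed no such pattern. It was at 64.2 and 83.5 CPM in wt, 74.8, 82.0 and 98.6 CPM in *Rspo2*KO, 139, 70.3 and 74.5 CPM in *Wnt9b*KO and 76.6, 73.6 and 106 CPM in DKO. All 4 genotypes overlapped, and the log2 fold changes were 0.20 ± 0.25, 0.36 ± 0.25 and 0.21 ± 0.25 in *Rspo2*KO, *Wnt9b*KO and DKO. Its near-copy *Hba-a2* was at 26.5 and 33.7 CPM in wt and at 36.1, 36.1 and 42.7 CPM in *Rspo2*KO, but at 3.14, 1.67 and 12.5 CPM in *Wnt9b*KO and 18.1, 2.92 and 2.79 CPM in DKO. The log2 fold change of *Hba-a2* was -2.39 ± 0.68 in *Wnt9b*KO and -1.92 ± 0.66 in DKO. Without *Wnt9b*KO 3 the first was -3.61, and without DKO 1 the second was -3.40.

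The sum of both alpha globin genes was 104 ± 18.8 CPM in wt (SD, n = 2), 123 ± 15.9 in *Rspo2*KO, 101 ± 37.1 in *Wnt9b*KO and 93.3 ± 16.1 in DKO (n = 3 each), which overlapped. What differed was the split. *Hba-a2* took 29.2% of the counts of both genes in wt 1 (95% Wilson interval 26.5 to 32.1) and 28.7% in wt 2 (26.8 to 30.8). In *Rspo2*KO it took 32.5%, 30.6% and 30.2%. In *Wnt9b*KO it took 2.20% (1.71 to 2.83), 2.32% (1.61 to 3.33) and 14.4% (12.7 to 16.3), and in DKO 19.1% (17.3 to 21.1), 3.82% (2.89 to 5.04) and 2.57% (1.93 to 3.41). The 5 libraries without the *Wnt9b* mutation thus lay within a few percentage points, whereas the 6 with it ranged from 2.20% to 19.1%, and 4 of them lay between 2.20% and 3.82%. The intervals cover counting error only. From counts of samples of mixed strain, a difference in expression of 1 copy and a difference between samples in the few bases that separate the copies cannot be told apart.

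A second pair of copies in the beta cluster, the adult genes *Hbb-bt* and *Hbb-bs*, behaved alike. Their coding sequences of 444 bases differ at 1 position (T417C, *Hbb-bt* base first), and 41.7% and 46.8% of their windows are unique. *Hbb-bt* took 72.3% and 76.0% of the counts of the pair in wt and 73.6% to 78.1% in *Rspo2*KO, but 6.94% to 46.9% in *Wnt9b*KO and 18.4% to 47.3% in DKO. The pair summed to 19.6 and 19.6 CPM in wt, 18.9 to 24.4 CPM in *Rspo2*KO, 4.29 to 20.9 CPM in *Wnt9b*KO and 10.5 to 17.4 CPM in DKO, far below the embryonic beta-like genes.

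**Figure D2:**
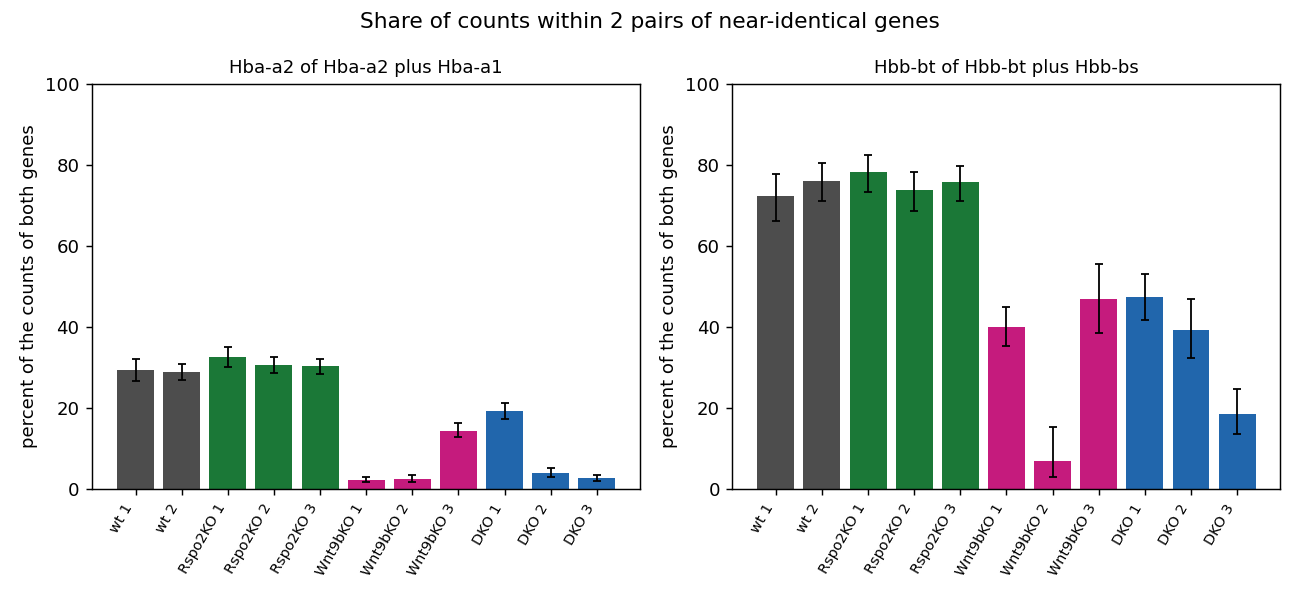
Percent of the counts of 2 near-identical genes that were assigned to 1 of them (vertical axes, 0 to 100) in each of the 11 libraries (horizontal axes), with 95% Wilson intervals as bars that cover counting error only. *Hba-a2* (left) took 28.7% to 32.5% in wt and *Rspo2*KO and 2.20% to 19.1% in *Wnt9b*KO and DKO, and *Hbb-bt* (right) was also lower in every library of the latter.

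*Alas2*, which encodes the first enzyme of heme synthesis, was at 30.3 and 33.0 CPM in wt, 33.9, 30.8 and 42.0 CPM in *Rspo2*KO, 25.3, 23.8 and 25.2 CPM in *Wnt9b*KO and 19.2, 20.8 and 25.04 CPM in DKO. Every library with the *Wnt9b* mutation was below every library without it. The log2 fold changes were small, -0.35 ± 0.15 in *Wnt9b*KO and -0.55 ± 0.15 in DKO.

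*Klf1* was at 5.53 and 5.43 CPM in wt, 4.71, 4.79 and 6.56 CPM in *Rspo2*KO, 3.67, 3.45 and 3.06 CPM in *Wnt9b*KO and 2.29, 2.12 and 3.09 CPM in DKO. It was lower in all 6 libraries with the *Wnt9b* mutation, by log2 -0.69 ± 0.22 in *Wnt9b*KO and -1.13 ± 0.23 in DKO. *Gata1* was at 2.41 and 3.92 CPM in wt, 2.62, 2.61 and 4.42 CPM in *Rspo2*KO, 3.19, 1.73 and 1.98 CPM in *Wnt9b*KO and 1.76, 1.49 and 1.70 CPM in DKO. *Wnt9b*KO overlapped with wt, and DKO was below both wt libraries by log2 -0.96 ± 0.33, which became -0.55 without wt 2.

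*Slc4a1* was the non-globin member that did not follow the embryonic globins. It was at 44.1 and 58.5 CPM in wt, 66.6, 56.3 and 69.9 CPM in *Rspo2*KO, 76.1, 52.2 and 56.9 CPM in *Wnt9b*KO and 59.6, 48.3 and 60.2 CPM in DKO. All mutant genotypes overlapped with wt, at log2 fold changes of 0.32 ± 0.17, 0.26 ± 0.17 and 0.12 ± 0.17.

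The differences were also computed with an offset for GC content and gene length. In *Wnt9b*KO and DKO this left *Hbb-y* at log2 -1.19 and -1.06 and *Hbb-bh1* at -1.17 and -1.12. It moved *Hba-x* to -0.19 and -0.37, *Klf1* to -0.39 and -0.87, *Alas2* to -0.16 and -0.37, and *Hba-a1* to 0.71 and 0.52. With it *Gata1* was at -0.27 and -0.76, *Hba-a2* at -2.04 and -1.57, and *Slc4a1* at 0.26 and 0.16.

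**Figure D3:**
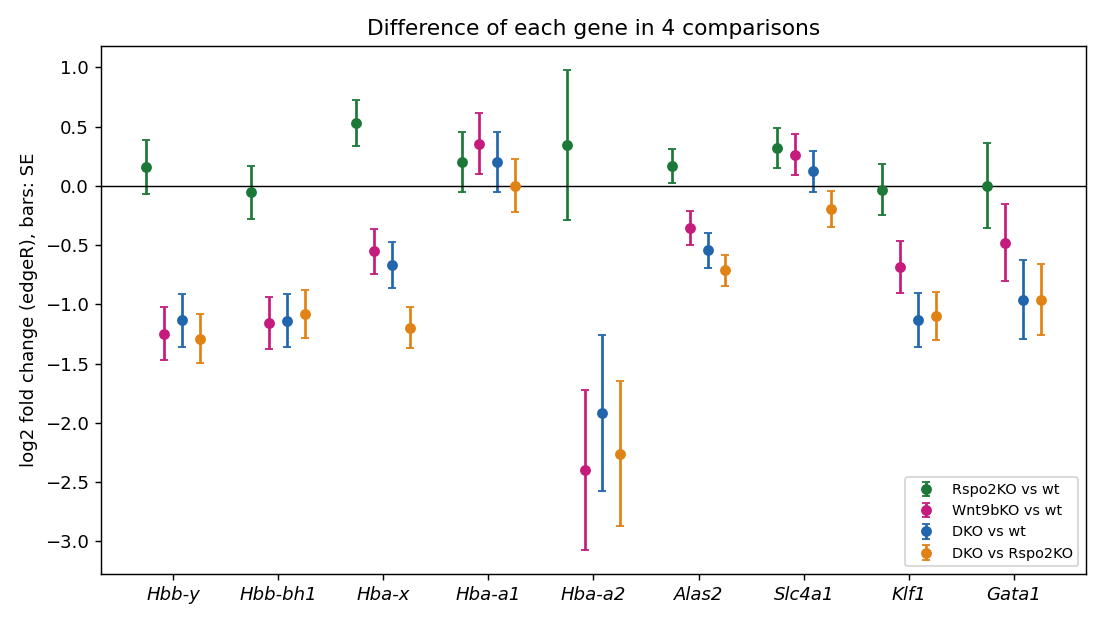
Log2 fold change of each of the 9 genes (vertical axis) with its SE from edgeR, for 4 comparisons marked by color. *Hbb-y*, *Hbb-bh1*, *Hba-x*, *Hba-a2*, *Klf1*, *Alas2* and *Gata1* lie below 0 under *Wnt9b*KO and DKO, *Hba-a1* and *Slc4a1* lie above 0 in both, and *Rspo2*KO values lie between -0.05 and 0.53.

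Against the background of these libraries, the counts of members are as follows, and nothing is read from them because the members were chosen on such differences. A gene was called when its adjusted p was below 0.05 (edgeR quasi-likelihood test, Benjamini-Hochberg adjustment over 17317 genes) and its change exceeded 1.5-fold. In *Wnt9b*KO 4 of 9 members were called lower, where 9.16% of all genes were called lower and 12.1% higher. In DKO 6 of 9 were called lower, where 6.77% of all genes were called lower and 9.94% higher. Against *Rspo2*KO, 7 of 9 were called lower in DKO, where 4.53% of all genes were called lower and 4.72% higher. No member was called in *Rspo2*KO against wt, where 0.0289% of genes were called higher and 0.00577% lower. None was called in DKO against *Wnt9b*KO either, where these shares were 0.0635% and 0.0577%. In the interaction (DKO minus both single mutants plus wt, no fold limit) no member was called, and 0.0289% of genes were called higher and 0.0346% lower. The levels of 5 members were below both wt libraries in all *Wnt9b*KO libraries, which holds for 28% of all genes, and those of 6 members in DKO, which holds for 28.6%. Between DKO and *Rspo2*KO 7 members did not overlap and were lower, against 18.3% of all genes. The counts of members called depended on single libraries and on the test. Without wt 2 they were 2 in *Wnt9b*KO and 3 in DKO, without DKO 2 there were 3 in DKO, and without *Rspo2*KO 3 there were 4 in DKO against *Rspo2*KO. With the offset for GC content and gene length 3 members were called lower in DKO, and in *Wnt9b*KO 3 were called lower and 1 (*Hba-a1*) higher. With edgeR's glmTreat, which tests against 1.5-fold directly, 1 member was called in *Wnt9b*KO, 0 in DKO and 2 in DKO against *Rspo2*KO.

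Ratios between members within a library do not depend on how libraries were scaled, and they were set per kb of exon. The ratio of *Hbb-bh1* to *Hbb-y*, the 2 embryonic beta-like genes, was 0.449 ± 0.0646 in wt (SD, n = 2), 0.382 ± 0.0179 in *Rspo2*KO, 0.484 ± 0.0944 in *Wnt9b*KO and 0.441 ± 0.0281 in DKO (n = 3 each). All *Rspo2*KO libraries were below both wt and all DKO libraries, *Wnt9b*KO overlapped with every genotype, and wt and DKO overlapped. The ratio of *Hba-x* to both alpha globin genes was 4.79 and 6.69 in wt, 6.44 to 7.60 in *Rspo2*KO, 2.98 to 6.03 in *Wnt9b*KO and 4.22 to 4.39 in DKO. Full exon lengths were used, and the counting of reads shared by the alpha globin genes is not known. The size of this ratio, and of the alpha-like to beta-like ratio below, depends on it.

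The ratio of alpha-like to beta-like transcripts was 0.131 and 0.195 in wt, 0.193 to 0.240 in *Rspo2*KO, 0.252 to 0.333 in *Wnt9b*KO and 0.207 to 0.277 in DKO. Every mutant library but 1 of *Rspo2*KO was above both wt libraries. Beta-like globins summed to 3545 ± 354 CPM in wt (SD, n = 2), 1524 ± 299 in *Wnt9b*KO and 1615 ± 481 in DKO (n = 3 each), and alpha-like globins to 852 ± 322, 611 ± 30.7 and 565 ± 92.3 CPM. The mean log2 ratio exceeded wt by 0.80 in *Wnt9b*KO and 0.62 in DKO, with a pooled SD of 0.27. Without wt 2 these were 1.09 and 0.91, and without wt 1 they were 0.52 and 0.33.

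*Alas2*, *Slc4a1*, *Klf1* and *Gata1* summed to 4.41 and 4.26 per 1000 globin transcripts (counts per kb) in wt and 4.03 to 4.91 in *Rspo2*KO. The sum was 7.36 to 9.38 in *Wnt9b*KO and 6.12 to 8.20 in DKO, above every library without the *Wnt9b* mutation. The difference was greatest for *Slc4a1*, at 1.71 and 1.98 per 1000 beta-like transcripts in wt, 2.00 to 2.60 in *Rspo2*KO, 4.30 to 5.74 in *Wnt9b*KO and 3.57 to 5.32 in DKO. For *Klf1* the same ratio was 0.637 ± 0.0713 in wt, 0.645 ± 0.0546 in DKO, which overlapped, and 0.941 ± 0.235 in *Wnt9b*KO (SD, n = 2 in wt and 3 in the others). Every *Wnt9b*KO library (0.739 to 1.20) was above both wt libraries (0.587 and 0.687).

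**Figure D4:**
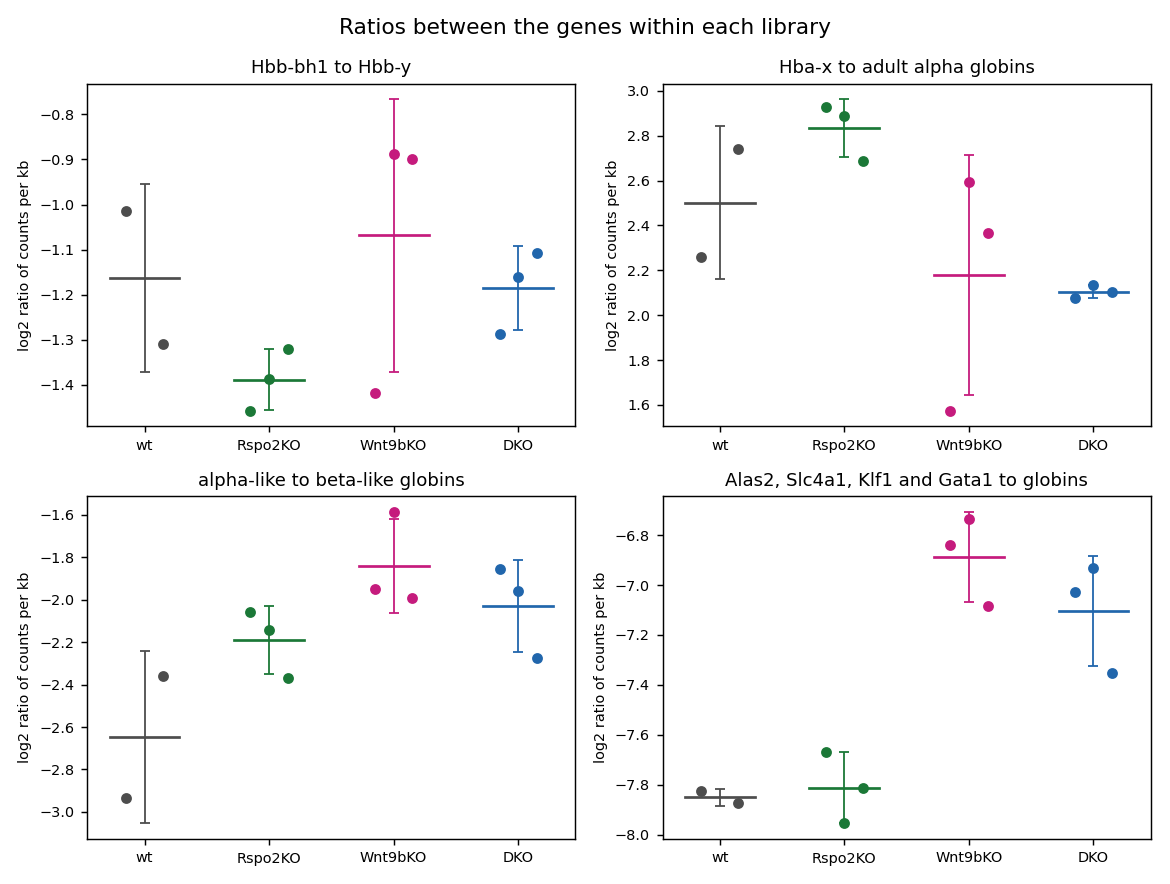
Log2 ratios of counts per kb between members within each library (vertical axes) by genotype (horizontal axes), with points for libraries, lines for means and bars for SD. *Hbb-bh1* to *Hbb-y* overlaps between wt, *Wnt9b*KO and DKO. The ratio of the sum of the 4 non-globin members to the globins is higher in all libraries of *Wnt9b*KO and DKO.

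A list of 80 erythroid genes outside the 9 was set beside the members, of which 79 were matched (all but *Ahsp*) and 72 tested. The list was chosen with earlier results of these same libraries known, and some genes named below were picked after their values were seen. It is thus no independent check on the members, and its p values describe these libraries only. In *Wnt9b*KO 9 of 72 fell and 8 rose, and in DKO 10 fell and 6 rose. The shares called, 23.6% and 22.2%, stand beside 21.2% and 16.7% of all genes, and the list medians of log2 fold change were -0.13 and -0.16 against 0.01 for all genes in both. Of the genes called, 11 were called in the same direction in both comparisons, which is 11 of 17 for *Wnt9b*KO and 11 of 16 for DKO, and both use the same wt libraries. Without wt 1 the calls numbered 9 and 6, and without wt 2 also 9 and 6. With an offset for GC content and gene length, *Urod*, *Epor* and *Sox6* lost their calls in *Wnt9b*KO and *Urod*, *Sox6*, *Lmo2* and *Tal1* in DKO.

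Red cell enzymes gave 4 genes that fell in *Wnt9b*KO and 3 in DKO, of 13 tested, and none that rose. Of all genes 9.16% fell and 12.1% rose in *Wnt9b*KO, and 6.77% and 9.94% did in DKO, and these are the shares beside which the counts of the smaller groups below stand as well. *Pklr*, the pyruvate kinase of red cells and liver, was at 7.76 and 7.36 CPM in wt, 5.61, 6.67 and 7.32 CPM in *Rspo2*KO, 2.55, 3.63 and 2.46 CPM in *Wnt9b*KO and 2.70, 2.86 and 2.73 CPM in DKO. Its log2 fold change was -1.39 ± 0.20 in *Wnt9b*KO (edgeR adjusted p = 0.000237) and -1.45 ± 0.21 in DKO (edgeR adjusted p = 0.000215). *Blvrb*, a biliverdin reductase abundant in red cells, was at 11.4 and 13.2 CPM in wt, 6.38, 3.34 and 5.75 CPM in *Wnt9b*KO and 5.69, 5.41 and 6.91 CPM in DKO, and fell by log2 -1.25 ± 0.22 and -1.04 ± 0.22 (edgeR adjusted p = 0.000792 and 0.00334). No library with the *Wnt9b* mutation reached the level of wt for either gene. *Ube2l6* also fell in both, and *Bpgm*, which makes 2,3-bisphosphoglycerate in red cells, fell in *Wnt9b*KO by log2 -0.59 ± 0.12.

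Among 15 genes of heme synthesis and iron, *Urod*, the uroporphyrinogen decarboxylase, fell in both. It was at 61.3 and 74.7 CPM in wt, 44.7, 37.9 and 45.2 CPM in *Wnt9b*KO and 38.6, 41.1 and 45.8 CPM in DKO, at log2 -0.68 ± 0.13 and -0.70 ± 0.13 (edgeR adjusted p = 0.00123 in both). Without wt 2 neither call was kept, and the call in *Wnt9b*KO was also lost without *Wnt9b*KO 2. *Steap3*, a ferrireductase, rose in DKO. *Tfrc*, the transferrin receptor, was at log2 -0.24 ± 0.18 and -0.28 ± 0.18, and did not pass.

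Among 19 genes of the membrane and cytoskeleton, 4 rose and 1 fell in *Wnt9b*KO, and 1 rose and 3 fell in DKO. *Smim1*, which carries the Vel blood group, fell in both, and *Epb42* (protein 4.2) fell in DKO, by log2 -0.74 ± 0.23. Of the genes that rose, *Ermap* did so in both, and *Dmtn*, *Ank1* and *Xk* in *Wnt9b*KO.

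Transcription factors moved in both directions. *Lmo2* fell in both, by log2 -0.83 ± 0.15 and -0.62 ± 0.15 (edgeR adjusted p = 0.000806 and 0.00631), and *Tal1* and *Lyl1* fell in DKO, all of which act in complexes with GATA factors in blood cells and in endothelium. The *Tal1* call was lost without either wt library. It was also lost without *Rspo2*KO 2, *Wnt9b*KO 2, *Wnt9b*KO 3 or DKO 2. *Sox6*, *Bcl11a* and *Cbfa2t3* rose in both. *Cbfa2t3* was scarce, at 0.446 and 0.664 CPM in wt, 1.76 to 2.28 CPM in *Wnt9b*KO and 1.74 to 2.87 CPM in DKO. It was also above both wt libraries in *Rspo2*KO, at 3.22, 1.09 and 1.70 CPM. *Sox6*, which is also expressed outside blood, was at 28.8 and 29.6 CPM in wt, 40.7, 68.8 and 58.3 CPM in *Wnt9b*KO and 53.6, 54.9 and 48.4 CPM in DKO, at log2 0.94 ± 0.17 and 0.84 ± 0.17 (edgeR adjusted p = 0.00116 and 0.00297). *Hemgn* was at log2 -0.27 ± 0.23 and -0.26 ± 0.24 and did not pass.

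Of 7 receptors and signaling genes, *Epor*, the erythropoietin receptor, fell in *Wnt9b*KO by log2 -0.74 ± 0.21 (edgeR adjusted p = 0.0141), and was at -0.50 ± 0.20 in DKO (edgeR adjusted p = 0.0831). The *Epor* call was lost without wt 1 or without wt 2. It was also lost without *Wnt9b*KO 3. *Kit*, a receptor of blood progenitors, melanoblasts and other cells, rose in both, by log2 0.81 ± 0.18 and 0.85 ± 0.18 (edgeR adjusted p = 0.00298 and 0.00285). The *Kit* calls were lost without wt 1.

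**Figure D5:**
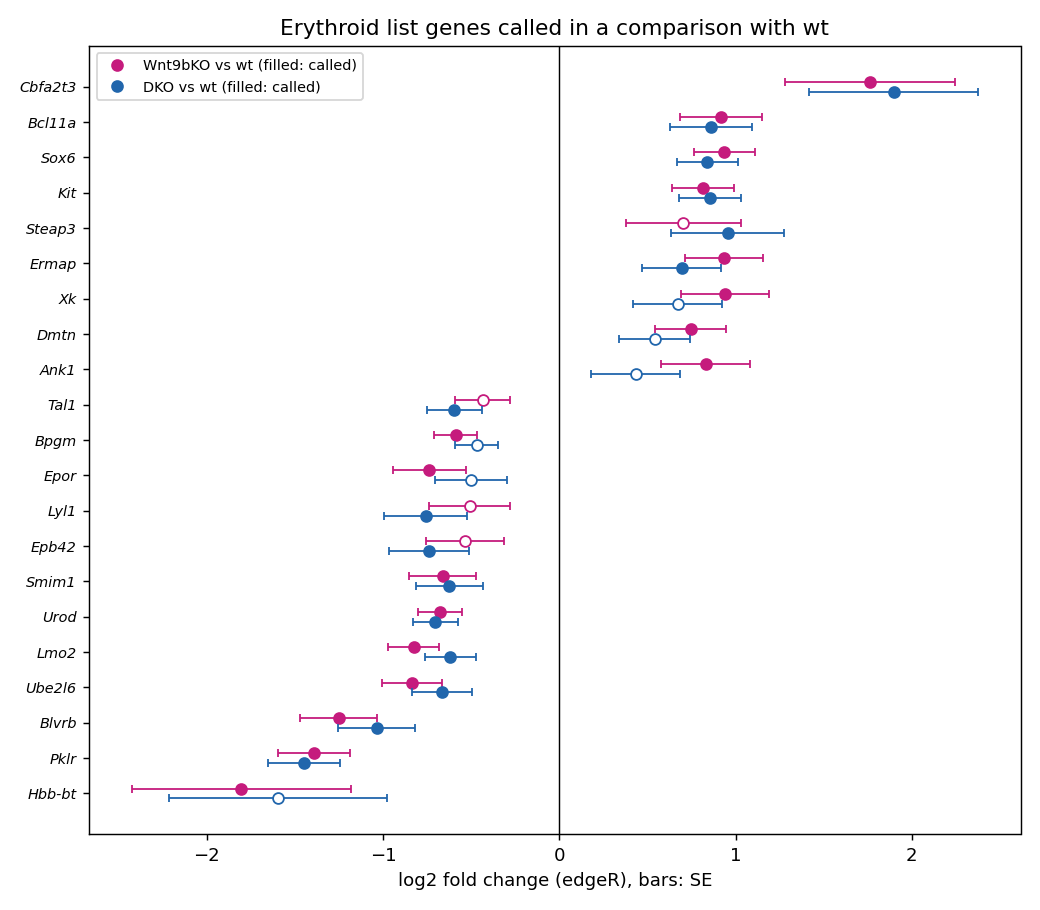
Log2 fold change against wt (horizontal axis) with its SE from edgeR for 21 of the 22 genes of the erythroid list called in *Wnt9b*KO or DKO, with filled points where the gene was called. *Pklr*, *Blvrb*, *Ube2l6*, *Lmo2*, *Urod* and *Smim1* lie below 0 and *Cbfa2t3*, *Bcl11a*, *Sox6*, *Kit* and *Ermap* above 0, with calls in both comparisons.

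Other globins of the list were scarce. *Hbb-bt* fell in *Wnt9b*KO by log2 -1.80 ± 0.62 (edgeR adjusted p = 0.0378), was at -1.60 ± 0.62 in DKO (edgeR adjusted p = 0.0684), and lost its call without either wt library. The call was also lost with DESeq2, with only the groups compared, and without *Wnt9b*KO 3 or any single *Rspo2*KO library. *Hbb-bs* was at log2 0.46 ± 0.40 and 0.70 ± 0.40, and *Hbq1b* at -0.80 ± 0.47 and -1.16 ± 0.49, without a call. *Hbb-bh2* had 1 to 6 counts and *Hbq1a* 0 to 4 counts per library, at or near the floor of 3 counts, and gave no fold.

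In *Rspo2*KO against wt no gene of the list was called by edgeR, 4 of 72 had an unadjusted p below 0.05, and DESeq2 called none. Between DKO and *Wnt9b*KO edgeR called none, 4 had an unadjusted p below 0.05, and DESeq2 called none. DKO against *Rspo2*KO, a comparison that uses no wt library, gave 11 genes that fell and 1 that rose, 16.7% of the list, beside 9.26% of all genes. They included *Pklr* (log2 -1.24 ± 0.19), *Blvrb* (-1.17 ± 0.20), *Tal1* (-0.79 ± 0.14) and *Urod* (-0.72 ± 0.12), and *Sox6* rose by 0.59 ± 0.15. The *Sox6* call, close to the 1.5-fold limit, was lost in 8 of 21 alternative fits. Among these were the offset for GC content and gene length and leaving out *Rspo2*KO 2, *Rspo2*KO 3, DKO 1 or DKO 2. The list median was -0.19. The interaction gave no call by edgeR, 9 genes at an unadjusted p below 0.05, and none by DESeq2.

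Markers of other cells in blood and vessels were set beside the globins. The 12 endothelial markers summed to 268 and 297 CPM in wt, 299 to 317 CPM in *Rspo2*KO, 280 to 294 CPM in *Wnt9b*KO and 273 to 300 CPM in DKO, so *Wnt9b*KO and DKO overlapped with wt in this sum. Members of that list went both ways, with 2 that rose and 1 that fell in *Wnt9b*KO and 1 that rose and 1 that fell in DKO. *Egfl7*, a gene of endothelial cells named here after its values were seen, was at 47.7 and 43.0 CPM in wt, 37.6 to 42.8 CPM in *Rspo2*KO, 28.5 to 32.7 CPM in *Wnt9b*KO and 28.1 to 32.0 CPM in DKO, and was thus lower in every library with the *Wnt9b* mutation. *Kdr* and *Cdh5* of the same list went the other way. *Kdr* was at 47.4 and 38.7 CPM in wt, 52.6 to 61.5 CPM in *Rspo2*KO, 59.6 to 71.8 CPM in *Wnt9b*KO and 55.4 to 64.5 CPM in DKO. *Cdh5* was at 21.8 and 32.8 CPM in wt, 38.5 to 52.0 CPM in *Rspo2*KO, 41.3 to 46.7 CPM in *Wnt9b*KO and 38.4 to 45.5 CPM in DKO. The 11 macrophage markers summed to 72.7 and 81.9 CPM in wt, 74.7 to 90.6 CPM in *Rspo2*KO, 42.0 to 64.0 CPM in *Wnt9b*KO and 66.0 to 69.9 CPM in DKO, and 4 of 11 fell in *Wnt9b*KO and 3 in DKO. The 9 megakaryocyte and platelet markers summed to 16.9 and 23.3 CPM in wt, 21.5 to 31.1 CPM in *Rspo2*KO, 13.7 to 18.4 CPM in *Wnt9b*KO and 12.2 to 17.7 CPM in DKO. The 9 facial mesenchyme markers summed to 1053 and 1144 CPM in wt, 781 to 853 CPM in *Rspo2*KO, 737 to 1334 CPM in *Wnt9b*KO and 871 to 969 CPM in DKO. The part of these cells in the globin levels was not tested.

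The genes most like the summed globins were ranked by Pearson correlation of log2 CPM over the 11 libraries, as a description. The first was *Dctn6* (r = 0.98, Spearman rho = 0.92), followed by *Urod* (0.98, 0.96), *Gpx1* (0.98, 0.93), *Glrx2* (0.97, 0.95), *Gm24407* (0.97, 0.93), *Mrps24* (0.97, 0.92), *Gm24265* (0.97, 0.88), *Dpm3* (0.97, 0.96), *Cope* (0.97, 0.95) and *Dtnbp1* (0.97, 0.98). *Gm24407* and *Gm24265* are snRNA genes, and *Urod* is the 1 gene of these 10 in the erythroid list. Among members, r with the sum to which the globins contribute was 0.996 for *Hbb-y*, 0.97 for *Hbb-bh1*, 0.93 for *Alas2*, 0.91 for *Hba-x*, 0.90 for *Klf1*, 0.83 for *Hba-a2*, 0.79 for *Gata1*, 0.25 for *Slc4a1* and 0.07 for *Hba-a1*. These libraries fall into separate sets by genotype, which such values largely describe.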

How the data were processed

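RNA of facial processes from E10.5 embryos was sequenced by the authors as single-end reads of 50 bases. Per the paper's methods and the submitters' processing notes, the authors used Cutadapt for trimming, STAR for alignment (GRCm38) and HTSeq-Count for the number of reads on each Ensembl gene. They deposited whole-number counts per gene for each library, without normalization. How reads that map to several genes were counted is not given in the sources used here.

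Labels gave each sample's genotype and number. The 9 genes and the list of erythroid genes were chosen with earlier results of these data known. Names, positions and exon lengths came from GENCODE M21, and 36723 of 38561 identifiers matched. Levels are CPM with TMM factors from edgeR 4.0.16 (R 4.3.3). After filterByExpr, 17317 genes were fitted over all 11 libraries by quasi-likelihood, 1 coefficient for each genotype, and p was adjusted by the Benjamini-Hochberg method. Calls needed an adjusted p below 0.05 and, except for the interaction, over 1.5-fold difference. The fit was tested on simulated data. Ratios used counts per kb of exon, and likeness used log2 of CPM plus 0.5. The list genes to be named were globins, *Epor*, *Tal1*, *Tfrc*, *Hemgn* and up to 5 called genes with the smallest p per comparison with wt. Some items of this rule are not reported here. The other list genes named were chosen after their values were seen. Alternatives were DESeq2 1.42.0, RLE factors, totals without factors or without globins, no filter, only the groups compared, a replicate block, an offset for GC content and length (loess span 0.3), other thresholds, and leaving out libraries. Intervals and the floor of 3 counts cover counting error only.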

Additional observations from a re-analysis of the deposited data

Results flagged for a closer look

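The difference of *Slc4a1* had opposite signs in 2 genetic backgrounds. Against wt its log2 level was higher by 0.26 in *Wnt9b*KO, with every library above the wt mean, and in DKO it was lower than in *Rspo2*KO by -0.20, with every library below the *Rspo2*KO mean. The first value rests on wt 1, since wt 2 (58.5 CPM) was above the *Wnt9b*KO libraries at 52.2 and 56.9 CPM. Without wt 1 the edgeR log2 fold change was 0.07 in *Wnt9b*KO and 0.14 in *Rspo2*KO, and without wt 2 it was 0.48 and 0.54. Seen from the *Rspo2* mutation, it was higher by 0.33 in *Rspo2*KO against wt, and the value of DKO against *Wnt9b*KO was -0.13. The same held for 2 ratios under the *Rspo2* mutation. *Hba-x* to both alpha globin genes differed by log2 0.33 in *Rspo2*KO against wt and by -0.07 in DKO against *Wnt9b*KO, and alpha-like to beta-like globins differed by 0.46 and -0.19. For *Slc4a1* the difference between backgrounds is the interaction of the edgeR fit, which was log2 -0.46 and was not called. For the 2 ratios it was not tested, since the genes were chosen with their values known. The pooled SD between replicates of the log2 ratios was 0.32 and 0.27.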

How the results depend on the processing

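Whether the replicate numbers shared by the genotypes pair the samples is not settled. Of 15 pairs with the same number, 3 had a correlation of deviations over 0.1, in a range of -0.11 to 0.24. Between the mutant genotypes, pairs with the same number ranged from 0.0415 to 0.24, and pairs with different numbers from -0.19 to 0.0631. A factor shared by samples of the same number was not tested, and the main fit held no such block. With the replicate block the erythroid list had 21 called genes in *Wnt9b*KO and 20 in DKO against wt, in place of 17 and 16, and 12 in DKO against *Rspo2*KO, as without it. With edgeR's glmTreat against 1.5-fold the calls of the list were 2, 1 and 1 in *Wnt9b*KO, in DKO and in DKO against *Rspo2*KO. *Rspo2*KO against wt gave 2 calls at an unadjusted p and 1 without the low-count filter, and the interaction gave 9 at an unadjusted p. Leaving out 1 library at a time, the list had 9 to 20 calls in *Wnt9b*KO, 6 to 19 in DKO and 5 to 15 in DKO against *Rspo2*KO, where the count was 7 without *Rspo2*KO 2, 5 without *Rspo2*KO 3 and 7 without DKO 2. Other list counts stayed within 1.5 times. The summed globins differed from wt by log2 -1.20 to -0.89 in *Wnt9b*KO, -1.23 to -0.88 in DKO and 0.03 to 0.34 in *Rspo2*KO when 1 library was left out. Between DKO and *Rspo2*KO the range was -1.42 to -1.06, and between DKO and *Wnt9b*KO -0.19 to 0.17. Without the libraries labelled *Wnt9b*KO 2 and DKO 3, the last was -0.32. The cause of these shifts was not tested. Of 810 recomputed fold changes of members 29 moved by more than the spread between replicates, and of 280 recomputed ratio differences 13 did. With *Hba-a2* alone in place of the sum, *Hba-x* to alpha globin differed from wt by log2 2.40 in *Wnt9b*KO and 1.88 in DKO, and with *Hba-a1* alone by -0.79 and -0.82. Depth limits *Gata1*, *Klf1* and *Hba-a2* most, with 24, 34 and 28 counts in their lowest libraries.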

Other observations

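*Ttr*, a carrier of thyroid hormone made in yolk sac endoderm, liver and choroid plexus, was uneven between libraries in a way that the globins were not. It was at 9.64 and 2.78 CPM in wt, 10.3, 9.40 and 17.6 CPM in *Rspo2*KO, 0.0532, 0.417 and 0.180 CPM in *Wnt9b*KO, and 14.3, 0.124 and 9.46 CPM in DKO. DKO 2 was the DKO library with the lowest *Ttr*, and it also had the lowest summed globins of its genotype, whereas DKO 1 had *Ttr* above both wt libraries and DKO 3 between them, with globins below wt. *Pf4* and *Ppbp*, which encode platelet chemokines, summed to 8.83 and 14.2 CPM in wt, 11.9 to 18.8 CPM in *Rspo2*KO, 7.19 to 8.30 CPM in *Wnt9b*KO and 5.79 to 9.34 CPM in DKO. They are part of the megakaryocyte and platelet list, whose members did not all go this way. *Gp5*, a scarce one, was at 0.625 and 0.664 CPM in wt, 0.607 to 0.673 CPM in *Rspo2*KO, 0.719 to 1.67 CPM in *Wnt9b*KO and 0.667 to 1.11 CPM in DKO. No tested marker of that list was called in DKO against wt, where 6.77% of all genes were called lower and 9.94% higher. In DKO against *Rspo2*KO 3 of 7 tested markers were called lower and 0 higher, beside 4.53% and 4.72% of all genes. In *Wnt9b*KO against wt 1 of 7 was called lower and 0 higher, beside 9.16% and 12.1% of all genes.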
